A study of Mus musculus with 30 samples.

Results

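Fatty acid oxidation is the main route by which the adult heart makes ATP, and the genes that run it were followed here as a set of 42. They were chosen by name and function, with earlier results of these data known. The set holds the carnitine shuttle, the mitochondrial beta-oxidation enzymes with their electron acceptors, the proteins that take up, activate, store and release fatty acids, targets of the peroxisome proliferator-activated receptors (PPARs), and the receptors and coactivators of the pathway. All 42 were listed among the 20764 genes of the heart count table, and all 42 were among the 15443 genes with a mean count above 5 that were tested. In the cultured cells all 42 were listed among 54532 genes, and 35 of them were tested.

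Hearts came from female mice of a mixed C57BL6/J and C57BL6/N background kept on chow in a 12:12 light/dark cycle and were collected late in the light phase (Zeitgeber time ZT10) or late in the dark phase (ZT22, under red light), with 3 hearts in each of 6 groups. Young mice were 2 months old, old H2O mice were 12 months old, and old NR mice were 12 months old and had nicotinamide riboside (NR), a precursor of NAD+, in their drinking water at 3 g/L from 2 months of age. In a separate experiment, HL-1 cells, a line derived from a mouse atrial tumour, were left untreated or received FK866, an inhibitor of the NAD+ salvage enzyme NAMPT, FK866 with NR, or FK866 with NR and Ex527, an inhibitor of the NAD+-dependent deacetylase SIRT1, with 3 libraries each. In whole-heart RNA fewer cells of a type and less RNA per cell cannot be told apart, and the p-values measure only the spread between these hearts, or between libraries of 1 cell line.

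A fatty acid enters the cell through transporters such as CD36, is joined to coenzyme A, and passes into mitochondria on carnitine, a step gated by carnitine palmitoyltransferase 1 and blocked by malonyl-CoA. Inside, repeated rounds of dehydrogenation, hydration and cleavage shorten the chain, and the hydroxyacyl-CoA dehydrogenase step uses NAD+. Fatty acids also bind PPARs, which together with the coactivators PGC-1alpha and PGC-1beta and the estrogen-related receptors raise the transcription of many of these genes in heart.

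Library totals ran from 3922137 to 7562215 counted reads in hearts and from 21337922 to 35000109 in the cultured cells. In hearts 6 cardiomyocyte markers summed to between 26998 and 40764 normalized counts and 7 adipocyte markers to between 58.7 and 317, whereas 5 atrial markers ranged from 632 to 735 in old NR hearts and from 2195 to 2856 in old H2O hearts at ZT10. Old NR ZT10 replicates 1 and 3 were closer to each other than any other pair of hearts in a group (chi-square per degree of freedom 1.07, against 1.75 for the next pair). They differed by more than sampling noise, which libraries of the same heart could also do, so this cannot show that they are different hearts. They were kept as separate hearts, as labelled. The libraries labelled HL-1 cardiomyocytes held next to no RNA of the defining cardiomyocyte genes. The same 6 markers summed to between 6.84 and 114 normalized counts, with Actc1 and Myl2 at 0 in all 12 libraries, beside between 12158 and 19909 for the collagen gene Col1a1. FK866 plus NR replicate 1 held transcripts that its group lacked, among them Acsl6 at 92.0 against 0 and 0 normalized counts in replicates 2 and 3, and Ryr2 at 93.2.

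Start-site sequence was at hand for 36 of the 42 members (45 windows of 250 bases before to 50 after a start site, RefSeq, GRCm38.p6) and was searched on both strands for letters bound by the receptors of the set and by clock proteins. No entry was matched for Acaa2, Angptl4, Cpt1b, Decr1, Lpl and Ppargc1b. The PPAR element of the half-site AGGTCA repeated after 1 base was in 0 of the 36 members and in 0.0481% of all genes with a window, and the estrogen-related receptor element TCAAGGTCA was in 1 member, Acsl6, and in 0.466% of all genes. The half-site by itself, which lies within both elements, was in 9 of the 36 members (25.0%) and in 18.1% of all genes. The E-box CACGTG, bound by CLOCK with BMAL1, was in 2 members, Lipe and Plin2, and in 8.09% of all genes, and neither the D-box TTATGTAA (1.11% of all genes) nor the REV-ERB element of the half-site preceded by AANT (0.259%) was in any. Windows of 30 bases are shown for Cpt1a, Ucp3 and Acsl6, because the results on time of day and age given next turn on these genes. They are in the sense of the gene, all on the plus strand, at chr19:3323195-3323224 for Cpt1a, chr7:100472830-100472859 and chr7:100472935-100472964 for Ucp3 and chr11:54303647-54303676 for Acsl6, and the capitals mark the matched letters, with TGACCT the half-site read on the other strand.
Cpt1a, 94 bases before the start site: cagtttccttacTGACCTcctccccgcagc
Ucp3, 149 bases before the start site: ttaaagagccccAGGTCAcggaagctaaac
Ucp3, 44 bases before the start site: gaattaggtttcAGGTCAgctggtgcacag
Acsl6, 167 bases before the start site: gcctccaaccTGACCTTGAgcattcttatt
A match says only that these letters stand in the window.

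Levels of the members spanned a wide range in heart. In counts per kilobase of exon and per 1000000 reads counted, the thiolase gene Acaa2 (median 249 over 18 hearts), the long-chain acyl-CoA dehydrogenase gene Acadl (222) and the transporter gene Cd36 (191) stood highest, and Cpt1b (6.70), Angptl4 (6.67) and Acsl6 (3.86) lowest. The level of Cpt1b, the muscle form of carnitine palmitoyltransferase 1, cannot be read from these counts: 81.4% of its exon bases are shared on the same strand with an overlapping annotated gene, Gm44502, and reads over several genes were not counted. For Etfb, the beta subunit of the electron transfer flavoprotein, that share was 58.2%. Of the 72-base subsequences of the paralogous thioesterase genes Acot1 and Acot2, 15.4% and 21.9% also occur in other genes, and reads that map to several places had been removed, so their counts are uncertain. Fabp3 (27.1%), Acadvl (20.4%) and Hadhb (17.0%) also share such subsequences with other genes, counting either strand. For Acadvl the other gene is Dvl2, which overlaps 42.9% of its exon bases on the opposite strand. Zcchc17 and Gm10570 likewise overlap 19.6% of those of Fabp3. Such reads come from 1 place in the genome and need not map to several.

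In young hearts 2 of the 42 members differed between ZT10 and ZT22, against 14.4% of all genes tested (edgeR quasi-likelihood test, Benjamini-Hochberg adjusted p under 0.05 over all genes). Cpt1a, the liver-type carnitine palmitoyltransferase 1 that is also made in heart, was higher at ZT10, and Angptl4, a secreted inhibitor of lipoprotein lipase and a PPAR target, was lower. Among old H2O hearts 4 members differed, against 4.2% of all genes, all lower at ZT10, against 2.64% of all genes that were lower: Ppargc1b, Plin5, Angptl4 and Acot1. In old NR hearts 3 differed, against 5.37%, with Cpt1a higher at ZT10 and Acsl6 and Esrrb lower. Averaged over the 3 kinds of heart 7 members differed, against 13.9%: Ucp2 and Cpt1a were higher at ZT10 (log2 0.28 and 0.22), and Angptl4, Acsl6, Esrrg, Esrrb and Plin5 were lower (log2 from -0.91 to -0.14). Of these, Ucp2, Cpt1a, Acsl6, Esrrg and Esrrb held without any of the 18 hearts, and Angptl4 was lost in 1 of 18 fits with adjusted p of 0.0532, Plin5 was lost in 2 of 18 fits with adjusted p from 0.0543 to 0.0552. The Angptl4 call was also lost under DESeq2 (adjusted p = 0.0689). None of the 12 beta-oxidation enzymes and none of the 3 electron transfer genes, Etfa, Etfb and Etfdh, passed the test in any of the 12 comparisons between hearts.

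**Figure D1:**
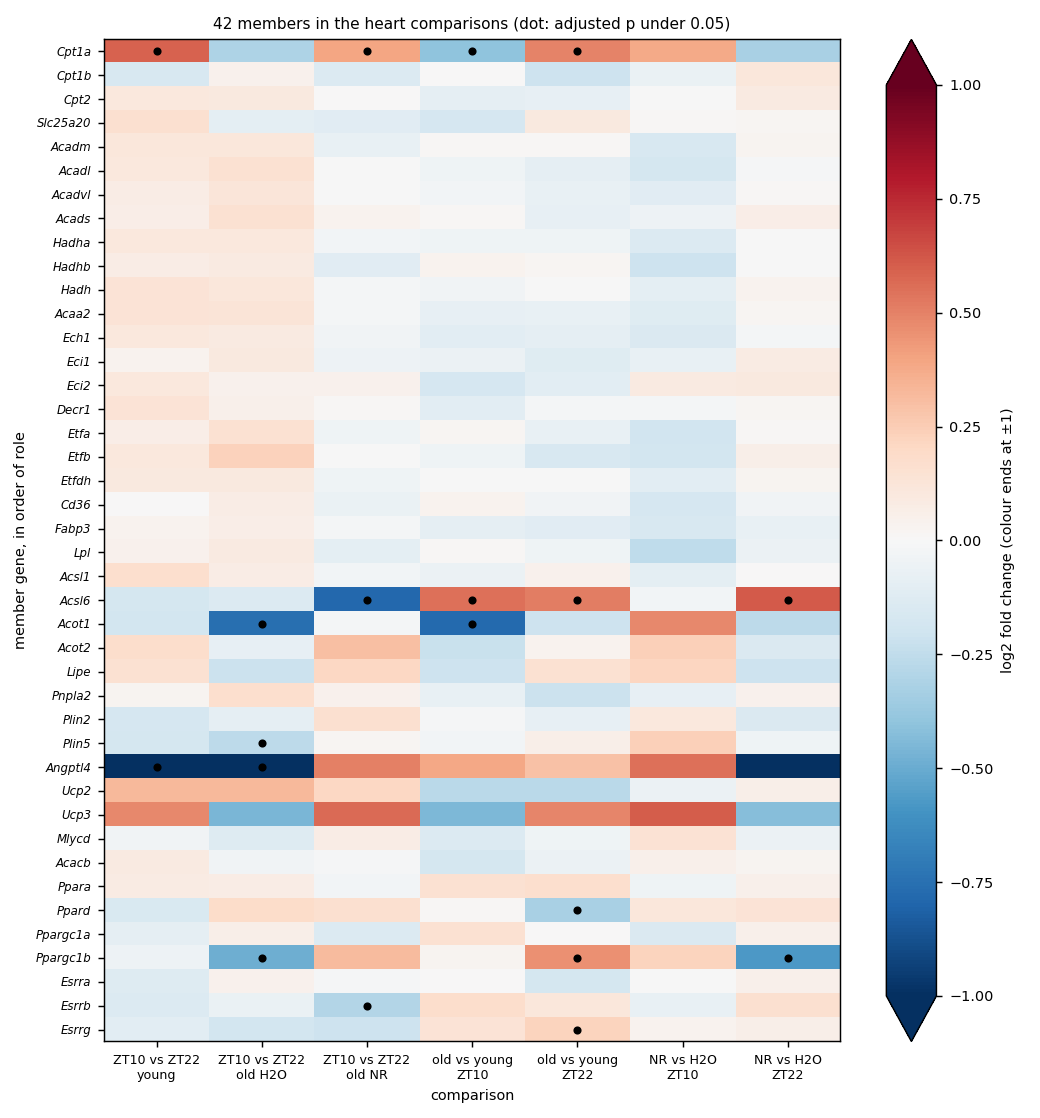
Log2 fold change of the 42 members (vertical axis, in order of role) in 7 heart comparisons (horizontal axis), red for higher and blue for lower in the first-named group, with a dot where the adjusted p was under 0.05. Cpt1a has log2 values of 0.59, -0.31 and 0.39 in the 3 columns of time of day, whereas the beta-oxidation enzymes below it stay pale and carry no dot.

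The time-of-day difference of Cpt1a was not the same in young and old H2O hearts. Its normalized counts were 967, 1174 and 999 in young hearts at ZT10 and 717, 725 and 649 at ZT22. Old H2O hearts had 733, 843 and 797 at ZT10 and 853, 959 and 1119 at ZT22. In old NR hearts they were 1061, 1002 and 1023 at ZT10 and 794, 692 and 869.9 at ZT22. The ZT10 hearts all lay above the ZT22 hearts in the young and old NR groups and all lay below them in the old H2O group, with no overlap in any of the 3. ZT10 exceeded ZT22 1.503-fold in young hearts (log2 0.59 ± 0.10 SE, edgeR adjusted p = 0.000238) and 1.31-fold in old NR hearts (log2 0.39 ± 0.09, adjusted p = 0.0159). In old H2O hearts the log2 difference was -0.31 ± 0.10 (adjusted p = 0.0707), which missed the threshold.

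The difference in time-of-day response between old H2O and young hearts was itself tested, and 3 members passed, against 6.89% of all genes. Cpt1a had the smallest adjusted p of them (log2 -0.90 ± 0.14, edgeR adjusted p = 0.000414). This held when any 1 of the 12 hearts was left out, with log2 values from -0.99 to -0.79. At a fixed time, Cpt1a was lower in old H2O than in young hearts at ZT10 (log2 -0.40 ± 0.10, adjusted p = 0.0148), where 3 members passed against 5.87% of all genes. It was higher at ZT22 (log2 0.50 ± 0.10, adjusted p = 0.00164), where 5 passed against 14.1%. The ZT10 call was lost without old H2O ZT10 replicate 1 (adjusted p = 0.0791) or young ZT10 replicate 2 (0.0976), and the ZT22 call held without any of the 6 hearts. Averaged over both times, the age difference of Cpt1a was log2 0.05 (adjusted p = 0.727).

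The time-of-day difference of Cpt1a in old NR hearts also had the other sign from that in old H2O hearts. The ratio of ZT10 to ZT22 differed between old NR and old H2O hearts by log2 0.70 ± 0.13 (edgeR adjusted p = 0.0201), and 2 members passed, against 0.343% of all genes. The tests of NR and of age share the old H2O hearts, so that their opposite signs are not independent. At a fixed time the difference between old NR and old H2O was log2 0.38 at ZT10 (adjusted p = 0.110) and -0.33 at ZT22 (adjusted p = 0.152), neither past the threshold. The call on the difference in response was lost without old H2O ZT10 replicate 1 (adjusted p = 0.0634), old H2O ZT10 replicate 3 (0.0591), old NR ZT10 replicate 1 (0.0632) or old NR ZT22 replicate 2 (0.0610). The call within old NR hearts was lost without old NR ZT10 replicate 1 (adjusted p = 0.0658), old NR ZT10 replicate 3 (0.0501) or old NR ZT22 replicate 2 (0.120). Old NR ZT10 replicates 1 and 3 are the close pair named above, so that this group may hold fewer than 3 separate hearts. The same limit applies to every other comparison that uses this group, and leaving out 1 of the pair keeps the other.

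**Figure D2:**
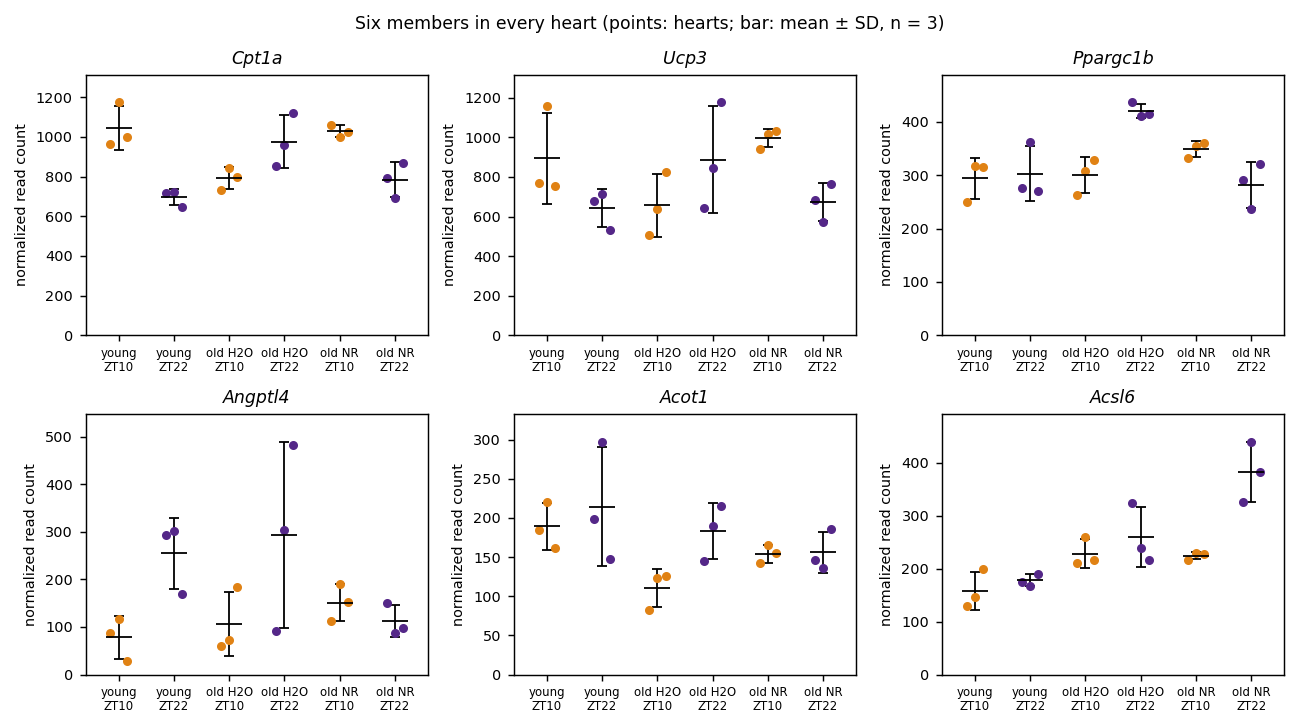
Normalized read counts (vertical axes, from 0) of 6 members in every heart, by group (horizontal axes; orange ZT10, purple ZT22), with each group's mean ± SD as a bar. Cpt1a stands higher at ZT10 in young and old NR hearts and higher at ZT22 in old H2O hearts, without overlap, and Ucp3 has the same order of group means with overlap in old H2O hearts.

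The rest of the carnitine shuttle moved little. Cpt2, the inner-membrane transferase, ran from 1302 to 1793 normalized counts over the 18 hearts, and Slc25a20, the carnitine-acylcarnitine exchanger, from 1085 to 1553. Malonyl-CoA, the inhibitor of the shuttle, is made by Acacb and broken down by Mlycd, which ran from 3562 to 4507 and from 850.1 to 1034. None of these 4 genes passed the test in any comparison between hearts.

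The 12 beta-oxidation enzymes, among them Hadha and Hadhb of the trifunctional protein and the chain-length specific dehydrogenases Acadm, Acadl, Acadvl and Acads, had small differences between groups. Their median log2 difference between ZT10 and ZT22 was 0.11 in the young and 0.11 in the old H2O group, with 12 of 12 and 12 of 12 positive, and -0.02 in old NR hearts, with 9 of 12 negative. The medians over all genes tested were 0.007, -0.001 and -0.01. These enzymes varied together between hearts with the library total, as given next, so their signs are not independent. Between old H2O and young hearts it was -0.04 at ZT10 and -0.08 at ZT22, and with NR against H2O in old hearts -0.12 at ZT10 and 0.02 at ZT22. Hadha stood at 4380.0, 4139 and 4698 normalized counts in young hearts at ZT10 and 4569, 3793 and 3912 at ZT22, and the groups overlapped. Over all 42 members the median absolute log2 difference was 0.11 between times in young hearts and 0.09 between ages at ZT22, beside 0.16 and 0.16 over all genes tested.

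Within groups these enzymes and other abundant members differed between hearts along with the size of the library. In old H2O hearts at ZT22 the totals were 3922137, 6122256 and 7562215 reads, and Lpl, the lipoprotein lipase that frees fatty acids from circulating fat, had 8229, 5713 and 4813 normalized counts. Ech1, an isomerase for unsaturated chains, had 2439, 1746 and 1492 in the same hearts. Both were lower the larger the library. The 6 cardiomyocyte markers fell in the same order in these hearts, among them Myh6 at 13880, 8809 and 7208 and Actc1 at 3880, 2480 and 1999. The fall was thus not particular to the members. Nor did all members share it: in these hearts 25 of 42 fell and 7 rose with the total, against 25.5% and 25.3% of all genes. Cpt1a, Ucp3, Angptl4 and Acot1 were among those that rose. The median of the 12 enzymes relative to its group mean went from log2 0.31 in the smallest to -0.29 in the largest of these libraries. With the log2 library total added to the model, a choice made after seeing the data, 22 of 42 members fell with the total at an adjusted p under 0.05 and 0 rose, against 9.20% of all genes that fell. Fabp3, the heart fatty acid binding protein, changed by log2 -0.84 per doubling of the total, Lpl by -0.83 and Ech1 by -0.77. The steepest positive slopes were those of Angptl4 (1.05, edgeR adjusted p = 0.200), Acot1 (0.59, 0.0971) and Ucp3 (0.49, 0.152).

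Cpt1a had a slope of log2 0.21 per doubling of the total (edgeR adjusted p = 0.231). Its difference in time response between old H2O and young hearts was log2 -0.89 (adjusted p = 0.000120) with the total in the model, and that between old NR and old H2O hearts was 0.68 (adjusted p = 0.00754). The calls of Acot1 and Angptl4 for time of day in old H2O hearts, described below, were lost with the total in the model (adjusted p = 0.0543 and 0.0735). For the whole set, the median difference of old NR from old H2O hearts at ZT10 went from log2 -0.05 to 0.01. The median difference between times went from 0.07 to 0.04 in young and from 0.07 to 0.03 in old H2O hearts. That between old H2O and young hearts at ZT22 went from -0.04 to 0.01. What else differs between small and large libraries was not tested.

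**Figure D3:**
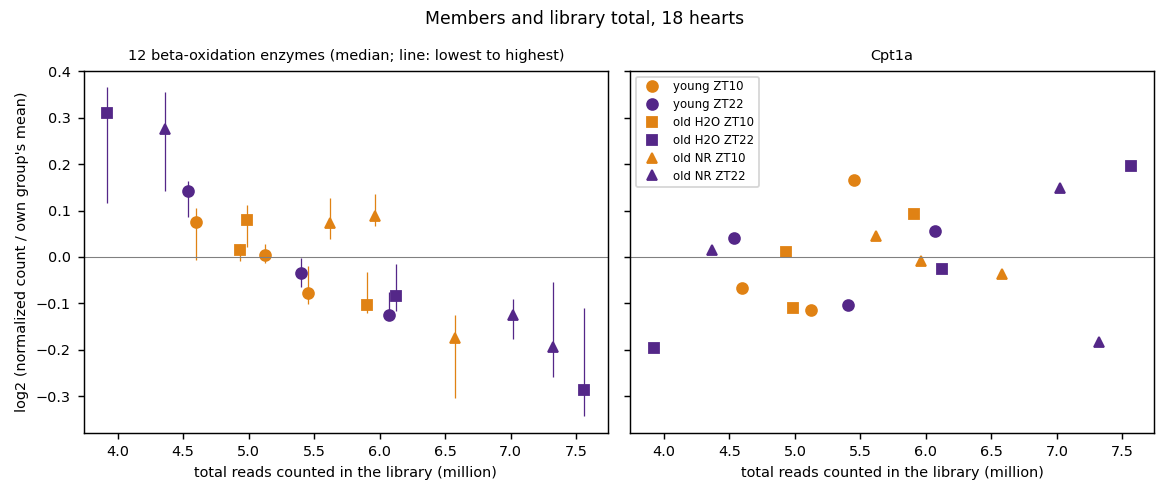
Log2 ratio of the normalized count to the mean of the heart's own group (vertical axes) against the total reads counted in each of 18 heart libraries (horizontal axes, in units of 1000000 reads), for the median of the 12 beta-oxidation enzymes (left, with lines from the lowest to the highest enzyme) and for Cpt1a (right). The enzymes run from 0.31 in the smallest library to -0.29 in the largest, whereas Cpt1a has no such fall and stands at -0.20 and 0.20 in these libraries.

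Of the genes for uptake, activation and hydrolysis of fatty acids, Cd36, Fabp3, Lpl, Acsl1 and Acot2 passed in no heart comparison, and Acsl6 and Acot1 passed in several. Acsl6, an acyl-CoA synthetase best known from brain, had 129, 147 and 198 normalized counts in young hearts at ZT10 and 175, 168 and 190.2 at ZT22. Old H2O hearts had 210.1, 259 and 216 at ZT10 and 323, 239 and 216 at ZT22. In old NR hearts it had 217, 229 and 227 at ZT10 and 326, 439 and 382 at ZT22. Every old heart lay above every young heart, and the old NR hearts at ZT22 lay highest, just above the old H2O hearts of that time.

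Averaged over times, Acsl6 was 1.44-fold higher in old H2O than in young hearts (log2 0.53 ± 0.11, edgeR adjusted p = 0.00233), 1 of 5 members against 11.8% of all genes, and this held without any of the 12 hearts. In old NR hearts Acsl6 was lower at ZT10 than at ZT22 (log2 -0.78 ± 0.13, adjusted p = 0.000785), which held without any of the 6 hearts. These fits cannot guard against the close pair in the old NR ZT10 group. At a fixed time the age difference of Acsl6 was log2 0.55 ± 0.15 at ZT10 (adjusted p = 0.0371) and 0.51 ± 0.15 at ZT22 (adjusted p = 0.0237), lost in 5 of 6 and 3 of 6 fits that left out 1 heart, with adjusted p from 0.0526 to 0.173 and from 0.0519 to 0.0913. At ZT22 it was higher in old NR than in old H2O hearts (log2 0.61 ± 0.13, adjusted p = 0.0420), 1 of 2 members against 0.35% of all genes. That call was lost without old H2O ZT22 replicate 2 (adjusted p = 0.196), old H2O ZT22 replicate 3 (0.186), old NR ZT22 replicate 2 (0.205) or old NR ZT22 replicate 3 (0.0834), and in a fit of the ZT22 groups alone (0.200). The difference in time response between old NR and old H2O hearts was log2 -0.64 (adjusted p = 0.213), past no threshold.

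Acot1, a cytosolic acyl-CoA thioesterase and PPARalpha target, had 82.9, 123 and 126 normalized counts in old H2O hearts at ZT10 and 144, 190.2 and 215 at ZT22. In young hearts it had 185, 221 and 162 at ZT10 and 199, 297 and 147 at ZT22, and in old NR hearts 142, 165 and 156 and 146, 136 and 186. The old H2O hearts at ZT10 lay below all other hearts. Acot1 was lower there than at ZT22 (log2 -0.76 ± 0.21, edgeR adjusted p = 0.0443) and lower than in young hearts at ZT10 (log2 -0.78 ± 0.22, adjusted p = 0.0349). The first call was lost in 5 of 6 fits that left out 1 heart, with adjusted p from 0.0765 to 0.216, and was kept only without old H2O ZT22 replicate 1. The second was lost in 5 of 6, with adjusted p from 0.0578 to 0.163, and was kept only without young ZT10 replicate 3. Over both times Acot1 was lower in old H2O than in young hearts (log2 -0.49 ± 0.14, adjusted p = 0.0296), lost in 5 of 12 fits that left out 1 heart, with adjusted p from 0.0514 to 0.109.

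Of the lipid droplet genes, Plin5, which tethers droplets to mitochondria in oxidative tissue, passed. Its normalized counts in old H2O hearts were 915, 891 and 925 at ZT10 and 1103, 1140.0 and 1035 at ZT22, without overlap (log2 -0.26 ± 0.07, edgeR adjusted p = 0.0337). In young hearts they were 968, 974 and 839 and 1098, 997 and 1049, also without overlap (log2 -0.17, adjusted p = 0.106), and in old NR hearts 1085, 1055 and 1084 and 1153, 989 and 1049, with overlap. The old H2O call was lost without old H2O ZT10 replicate 1 (adjusted p = 0.0779), old H2O ZT10 replicate 2 (0.118), old H2O ZT10 replicate 3 (0.0873) or old H2O ZT22 replicate 2 (0.149), with no filter on low counts (0.0509) and in a fit of old H2O hearts alone (0.0559). Pnpla2 and Lipe, lipases for triacylglycerol and diacylglycerol, and Plin2, the ubiquitous droplet coat protein, passed in no comparison between hearts.

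Angptl4 varied most of the 42 members over the 18 hearts. Its normalized counts were 87.8, 117 and 28.9 in young hearts at ZT10 and 293, 302 and 169 at ZT22. In old H2O hearts they were 60.7, 72.9 and 184 and 91.8, 305 and 483, and in old NR hearts 112, 189 and 153 and 150.4, 87.6 and 98.4. The times did not overlap in young hearts and overlapped in both old groups. ZT10 was 3.17-fold lower than ZT22 in young hearts (log2 -1.67 ± 0.46, edgeR adjusted p = 0.0176) and 2.98-fold lower in old H2O hearts (log2 -1.58 ± 0.43, adjusted p = 0.0380). In old NR hearts the difference was log2 0.50 (adjusted p = 0.639).

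The young call of Angptl4 was lost without young ZT10 replicate 3 (adjusted p = 0.0944) or young ZT22 replicate 2 (0.0744). The old H2O call was lost without old H2O ZT10 replicate 1 (adjusted p = 0.174), old H2O ZT10 replicate 2 (0.153), old H2O ZT22 replicate 2 (0.0850) or old H2O ZT22 replicate 3 (0.294), under DESeq2 (0.198) and in a fit of old H2O hearts alone (0.0758). Between old NR and old H2O hearts Angptl4 differed by log2 -1.53 ± 0.42 at ZT22 (edgeR adjusted p = 0.118) and in time response by log2 2.08 ± 0.62 (adjusted p = 0.206), with 95% intervals of -2.34 to -0.71 and 0.86 to 3.30 before adjustment over all genes. Angptl4 is also made by fat cells, and the 7 adipocyte markers summed to between 66.3 and 317 normalized counts in young hearts at ZT10 and between 81.1 and 159 at ZT22, which overlap. In young hearts the order of these sums differed from that of Angptl4 at both times. In old H2O hearts they summed to 58.7, 147 and 286 at ZT22, in the same order of hearts as Angptl4. At ZT10 they ran from 133 to 227, highest in the old H2O heart with the most Angptl4. The part of fat cells in these calls was not tested.

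Ucp3, the muscle uncoupling protein and a PPAR target, also passed for the difference in time response between old H2O and young hearts. It had 770.4, 1157 and 754 normalized counts in young hearts at ZT10 and 678, 716 and 533 at ZT22, without overlap. Old H2O hearts had 508, 640.0 and 823 and 644, 844 and 1177, with overlap. The difference in response was log2 -0.94 ± 0.27 (edgeR adjusted p = 0.0363). It was lost without old H2O ZT10 replicate 1 (adjusted p = 0.101), old H2O ZT10 replicate 2 (0.0696), old H2O ZT22 replicate 2 (0.0508), old H2O ZT22 replicate 3 (0.123), young ZT10 replicate 2 (0.126) or young ZT22 replicate 3 (0.0979), and under DESeq2 (0.0998). In old NR hearts Ucp3 had 944, 1015 and 1033 at ZT10 and 683, 573 and 767 at ZT22, without overlap but with an adjusted p of 0.0784 (log2 0.57).

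Ucp2, the widely expressed paralog, passed in means over groups. It was higher at ZT10 than at ZT22 over the 3 kinds of heart (log2 0.28 ± 0.06, edgeR adjusted p = 0.00417). Its normalized counts were 753, 789.7 and 813 in young hearts at ZT10 and 507, 671 and 691 at ZT22, without overlap. Old H2O hearts had 544, 669 and 735 and 462, 566 and 519.8, and in old NR hearts 604, 641 and 622 and 624, 540.5 and 468, with overlap in both. The time call held without any of the 18 hearts. At ZT10 alone or ZT22 alone it passed neither for age nor for time within any group. Ucp2 was also lower in old H2O than in young hearts over both times (log2 -0.27 ± 0.08, adjusted p = 0.0288), a call lost in 7 of 12 fits that left out 1 heart, with adjusted p from 0.050003 to 0.0893.

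Among the 7 receptors and coactivators, Ppara, the receptor that drives much of the pathway in heart, ran from 488 to 683 normalized counts, Ppargc1a, which encodes PGC-1alpha, from 1408 to 1826, and Esrra from 1025 to 1319. These 3 genes passed in no comparison, and between ages Ppara differed by log2 0.17 at ZT22 (edgeR adjusted p = 0.252). Ppargc1b, which encodes PGC-1beta, did pass. Its normalized counts were 436, 411 and 415 in old H2O hearts at ZT22 and 263, 307 and 329 at ZT10. At ZT22 young hearts had 276, 362 and 271 and old NR hearts 290.0, 236 and 321. The old H2O hearts at ZT22 lay above all other hearts, of which the highest was a young heart at 362.

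Ppargc1b was lower at ZT10 than at ZT22 in old H2O hearts (log2 -0.48 ± 0.11, edgeR adjusted p = 0.0167), lost without old H2O ZT10 replicate 1 (adjusted p = 0.10005). At ZT22 it was higher in old H2O than in young hearts (log2 0.46 ± 0.11, adjusted p = 0.0101), lost without young ZT22 replicate 3 (adjusted p = 0.0613). It was lower in old NR than in old H2O hearts at ZT22 (log2 -0.58 ± 0.11, adjusted p = 0.0248), lost without old H2O ZT22 replicate 2 (adjusted p = 0.0916), old H2O ZT22 replicate 3 (0.0698) or old NR ZT22 replicate 2 (0.140), and in a fit of the ZT22 groups alone (0.106). The difference in time response between old NR and old H2O hearts was log2 0.80 ± 0.16 (adjusted p = 0.0258), lost in 8 of 12 fits that left out 1 heart, with adjusted p from 0.0520 to 0.0866.

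Ppard, the PPAR found in most tissues, was lower in old H2O than in young hearts at ZT22, with 388, 469 and 431 against 508, 546 and 566 normalized counts and no overlap (log2 -0.32 ± 0.07, edgeR adjusted p = 0.00300), and this held without any of the 6 hearts. Over both times the age difference was log2 -0.16 ± 0.05 (adjusted p = 0.0398), lost in 9 of 12 fits that left out 1 heart, with adjusted p from 0.0649 to 0.101, under DESeq2 (0.112) and with no filter on low counts (0.0769). At ZT10 the groups had 501, 486 and 489 against 469, 498 and 495 and overlapped. The difference in time response was log2 0.34 ± 0.10 (adjusted p = 0.0393), lost in 10 of 12 fits that left out 1 heart, with adjusted p from 0.0598 to 0.0952, under DESeq2 (0.0784) and with no filter (0.0513).

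Esrrg, an estrogen-related receptor of oxidative muscle, was higher in old H2O than in young hearts over both times (log2 0.18 ± 0.05, edgeR adjusted p = 0.0113) and lower at ZT10 than at ZT22 over the 3 kinds of heart (log2 -0.17 ± 0.04, adjusted p = 0.00326), which held without any of the 12 and 18 hearts. At ZT22 it stood at 698, 785 and 719.9 normalized counts in young, 922, 805 and 855 in old H2O and 931, 857 and 895 in old NR hearts, with the young hearts below all the others. At that time alone the age difference was log2 0.22 ± 0.06 (adjusted p = 0.0225), lost in 3 of 6 fits that left out 1 heart, with adjusted p from 0.0635 to 0.0847, and in a fit of the groups compared alone (0.0984). Esrrb, its paralog, was lower at ZT10 in old NR hearts, at 594, 584 and 537 against 761, 681 and 672 (log2 -0.30 ± 0.08, adjusted p = 0.0254), lost without old NR ZT10 replicate 2 (adjusted p = 0.0563), old NR ZT10 replicate 3 (0.150), old NR ZT22 replicate 1 (0.0934) or old NR ZT22 replicate 2 (0.0519).

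Between old NR and old H2O hearts, 0 members passed at ZT10, against 0.285% of all genes, and 0 over both times, against 0.337%. An unadjusted p under 0.05 in edgeR was reached by 6 and 3 of 42 members, and DESeq2 called 0 and 0. A fit of the ZT10 groups alone called 3, Cpt1a, Plin5 and Ucp3. Over both times the 95% interval of the log2 difference was -0.11 to 0.16 for Cpt1a and -0.12 to 0.13 for Ppara. The 5 atrial markers differed between the same groups at ZT10, as given above. They summed to between 693 and 2995 normalized counts in old H2O hearts at ZT22 and between 872 and 4202 in young hearts at ZT10. Their part in the values of the members was not tested. This includes every call that uses the old H2O hearts at ZT10, among them those on Cpt1a, Acot1, Ppargc1b, Plin5, Angptl4, Ucp3, Ppard and Acsl6.

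Other genes of the pathway were followed in 4 lists of 12, 14, 20 and 15 genes, of which 12, 13, 20 and 14 were tested in hearts. In the list of other mitochondrial and ketone genes, Bdh1, which interconverts the ketone bodies, had 657, 295 and 396 normalized counts in young hearts at ZT10 and 767, 1050.4 and 1123 at ZT22, and between 1160.3 and 2003 in the old hearts, all above the young. It was higher in old H2O than in young hearts by log2 1.16 ± 0.15 over both times (edgeR adjusted p = 2.07e-05). In the peroxisomal list 3 of 13 passed for the difference in time response between old H2O and young hearts, against 6.89% of all genes, Ehhadh at log2 -0.78, Abcd2 at -0.73 and Acox3 at -0.41. Among uptake and storage genes Acsl3 was lower at ZT10 in young, old H2O and old NR hearts (log2 -0.63, -0.54 and -0.87), and among other targets Pdk4, which restrains glucose oxidation, was lower at ZT10 in young hearts (log2 -0.52, adjusted p = 0.0387). No gene of the 4 lists passed in any of the 4 comparisons of old NR with old H2O hearts. Only from 0.285% to 0.35% of all genes passed in these, so that 0 calls say little about lists of this size.

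In the cells labelled HL-1 the levels were ordered otherwise. Cd36, Acsl6, Plin5, Ucp3, Ppara, Esrrb and Esrrg had too few counts to be tested. In FPKM as deposited, the median of untreated cells was highest for Etfa (82.0), Acadl (79.7) and Plin2 (49.9), and Cpt1a stood at 32.4. With FK866 against untreated cells, 1 of 35 members passed an adjusted p under 0.01 with a change over 1.5-fold, against 4.59% of all genes, and 12 passed an adjusted p under 0.05 alone, against 24.8%. Of the latter, Cpt1a rose, and 11 fell, against 12.6% of all genes that fell: Ucp2, Hadh, Acot1, Ech1, Acaa2, Acads, Slc25a20, Eci2, Etfb, Eci1 and Decr1.

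Cpt1a had 3694, 3731 and 3462 normalized counts in untreated cells and 5181, 5024 and 5606 with FK866. It had 3771, 3892 and 3836 with FK866 and NR, and 4195, 4200.4 and 4754 with Ex527 added. The FK866 libraries lay above all others and the untreated libraries below all others. Cpt1a was 1.45-fold higher with FK866 (log2 0.54 ± 0.06, edgeR adjusted p = 3.05e-05), and it was lower with NR on top of FK866 (log2 -0.46 ± 0.06, adjusted p = 0.000127). Both held without any of the 6 libraries. With Ex527 added it differed from FK866 and NR by log2 0.19 (adjusted p = 0.0821), past no threshold, and from FK866 alone by log2 -0.27 (adjusted p = 0.0148), lost without Ex527-treated replicate 1 (adjusted p = 0.0706) or Ex527-treated replicate 2 (0.0739).

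Ucp2 had 6326, 6921 and 7452 normalized counts in untreated cells and 4449, 5068 and 4245 with FK866. It had 5662, 5606 and 5994 with FK866 and NR, and 6374, 6656 and 6034 with Ex527 added. The FK866 libraries lay below all others. Ucp2 was 1.504-fold lower with FK866 (log2 -0.59 ± 0.08, edgeR adjusted p = 5.79e-05) and was the only member past both limits, Etfb being 1.56-fold lower with an adjusted p of 0.0254. Over the fits that left out 1 library the change ran from log2 -0.67 to -0.53, and it was inside the limit without FK866 replicate 1, FK866 replicate 3 or untreated replicate 3. With NR on top of FK866 Ucp2 was higher than with FK866 alone by log2 0.33 ± 0.08 (adjusted p = 0.00500).

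Of the 12 beta-oxidation enzymes, 7 fell with FK866 at an adjusted p under 0.05 and 0 rose, against 12.6% of all genes that fell, with a median of log2 -0.25. Hadh, the NAD+-dependent hydroxyacyl-CoA dehydrogenase for short and medium chains, went from 3117, 3274 and 3608 normalized counts to 2559.6, 2707 and 2451 (log2 -0.37 ± 0.07, edgeR adjusted p = 0.000912). Ech1 went from 1097, 1270.4 and 1256 to 905, 957 and 923 (log2 -0.38 ± 0.07, adjusted p = 0.00178). Acads, the short-chain dehydrogenase, went from 827, 864 and 829 to 629, 732 and 643 (log2 -0.33 ± 0.08, adjusted p = 0.00641). Acaa2 went from 943, 993 and 1018 to 777, 845 and 754. In none of these genes did the FK866 libraries overlap with the untreated, and each call held without any of the 6 libraries.

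Outside these enzymes, Acot1 fell from 727, 728 and 870.1 normalized counts to 527, 599.8 and 457 (log2 -0.55 ± 0.10, edgeR adjusted p = 0.000959), which held without any of the 6 libraries. Slc25a20 fell from 801, 813 and 804 to 584, 707 and 664 (log2 -0.31 ± 0.08, adjusted p = 0.00996), lost without FK866 replicate 1 (adjusted p = 0.0637). Other falls were less stable: Decr1 was lost without FK866 replicate 1 (adjusted p = 0.0913), FK866 replicate 3 (0.160), untreated replicate 2 (0.0792) or untreated replicate 3 (0.140), and Eci2 without FK866 replicate 1 (adjusted p = 0.0559), FK866 replicate 3 (0.0548) or untreated replicate 3 (0.0752). Eci1 was lost without FK866 replicate 1 (adjusted p = 0.0666), FK866 replicate 3 (0.149), untreated replicate 2 (0.0574) or untreated replicate 3 (0.107), and Etfb without FK866 replicate 1 (adjusted p = 0.0512), FK866 replicate 3 (0.112), untreated replicate 2 (0.0650) or untreated replicate 3 (0.0522). In a fit of the groups compared alone Decr1 and Eci1 were lost (adjusted p = 0.101 and 0.106), and with no filter Decr1 (0.0534). Beside these falls, 5 fibroblast markers, among them Col1a1, summed to between 16956 and 17402 normalized counts with FK866 and between 21886 and 23303 in untreated cells, and their part in the result was not tested.

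**Figure D4:**
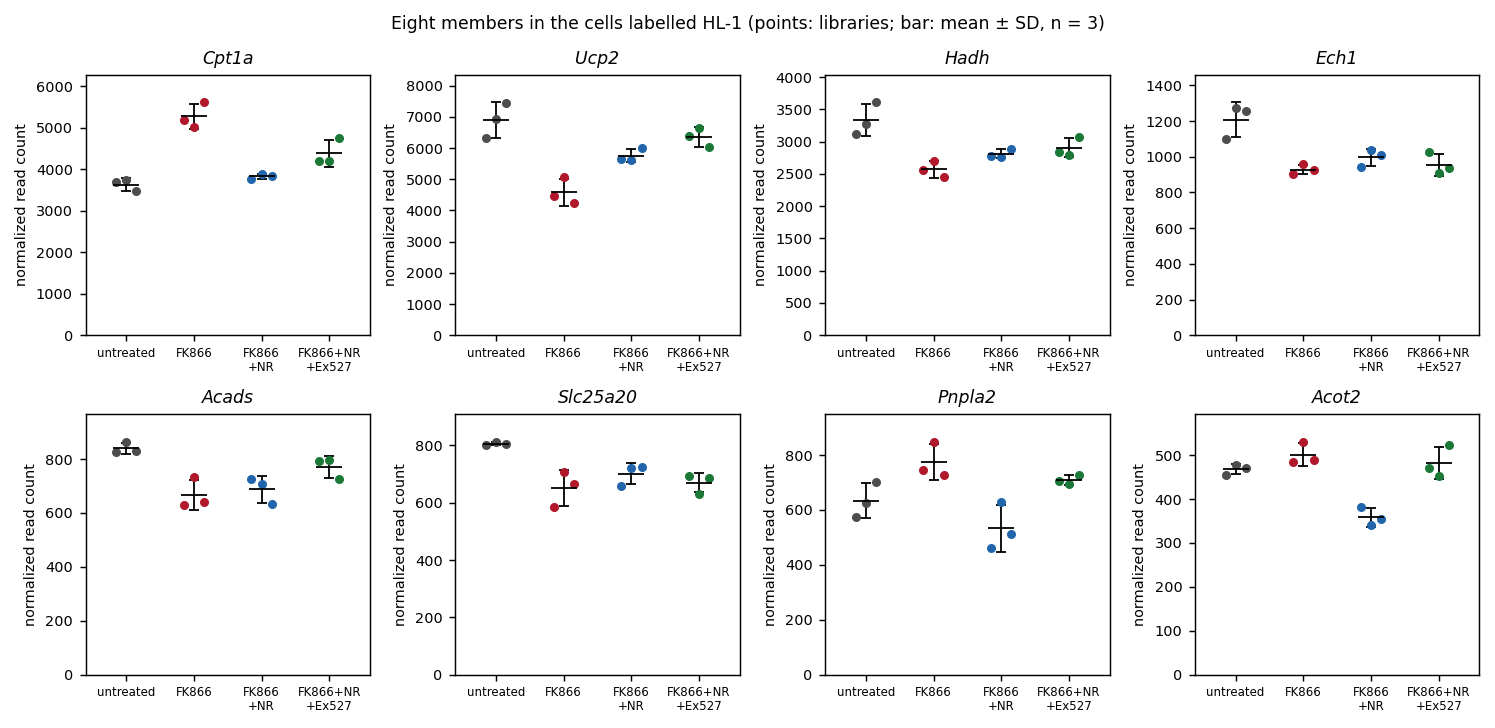
Normalized read counts (vertical axes, from 0) of 8 members in every library of the cells labelled HL-1, by treatment (horizontal axes), with each group's mean ± SD as a bar. Cpt1a is highest and Ucp2 lowest with FK866, Acot2 is lowest with FK866 and NR, and Hadh, Ech1, Acads and Slc25a20 lie below the untreated libraries in all 3 treatments.

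With FK866 and NR against untreated cells, 0 members passed the rule with the fold limit, against 0.901% of all genes, in edgeR and 0 in DESeq2, and 18 of 35 had an unadjusted p under 0.05 in edgeR. At an adjusted p under 0.05 alone 12 passed, against 23.9%, all lower, against 12.8% of all genes that fell: Acaa2, Plin2, Acot2, Etfa, Ech1, Acads, Hadh, Ucp2, Eci1, Acot1, Eci2 and Decr1. Acaa2 had 756, 758 and 737 normalized counts with FK866 and NR against 943, 993 and 1018 in untreated cells, without overlap (log2 -0.39 ± 0.07, adjusted p = 0.00909). Plin2 had 3346, 3738 and 3683 against 4642, 4492 and 5022, also without overlap (log2 -0.39 ± 0.08, adjusted p = 0.00951), lost without FK866 plus NR replicate 1 (adjusted p = 0.0512). Of the 12, Acaa2 and Acot2 held without any library, and without FK866 plus NR replicate 1, the library with stray transcripts, those 2 alone stayed past the threshold. With the replicate number as a block Decr1 and Acot1 were lost (adjusted p = 0.0560 and 0.0514), and in a fit of the groups compared alone Eci2 (0.0525). For Cpt1a the difference was log2 0.08, with a 95% interval of -0.05 to 0.21.

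NR on top of FK866 gave 0 members past the rule with the fold limit, against 4.81% of all genes, in edgeR and 0 in DESeq2, with 10 at an unadjusted p under 0.05 in edgeR. At an adjusted p under 0.05 alone 7 passed, against 28.9%, namely Cpt1a, Ucp2, Acot2, Pnpla2, Plin2, Acadl and Mlycd, all lower with NR except Ucp2. Acot2, the mitochondrial thioesterase, had 484, 530.5 and 488 normalized counts with FK866, 382, 339.7 and 354 with NR added and 469.7, 453 and 522 with Ex527 as well. The libraries with NR alone on top of FK866 lay below all others. Acot2 fell with NR (log2 -0.48 ± 0.08, adjusted p = 0.000573) and was higher again with Ex527 (log2 0.43 ± 0.08, adjusted p = 0.00612), and both held without any library. Plin2 was lost without FK866 replicate 2 (adjusted p = 0.0639) or FK866 plus NR replicate 1 (0.0572), Acadl without FK866 replicate 2 (adjusted p = 0.113), FK866 plus NR replicate 1 (0.0661) or FK866 plus NR replicate 2 (0.0982), and Mlycd in 5 of 6 fits, with adjusted p from 0.0625 to 0.157, and also under DESeq2 (0.0526), with the replicate block (0.0617) and in a fit of the groups compared alone (0.0593).

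Pnpla2, the first lipase of triacylglycerol breakdown, had 747, 848 and 727 normalized counts with FK866, 459.8, 628 and 513 with NR added and 704, 694 and 729 with Ex527 as well. The libraries with NR lay below both of the other treatments. It fell with NR (log2 -0.54 ± 0.11, edgeR adjusted p = 0.00186), which held without any of the 6 libraries, and was higher with Ex527 (log2 0.41 ± 0.11, adjusted p = 0.0319), which was lost in 5 of 6 fits that left out 1 library, with adjusted p from 0.0661 to 0.146.

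Ex527 on top of FK866 and NR gave 0 members past the rule with the fold limit, against 0.596% of all genes, in edgeR and 0 in DESeq2, with 9 at an unadjusted p under 0.05 in edgeR. At an adjusted p under 0.05 alone 3 passed, against 7.17%: Acot2, Pnpla2 and Lpl. Lpl had 4810.2, 5168 and 4925 normalized counts with FK866 and NR and 3857, 3673 and 4117 with Ex527, without overlap (log2 -0.36 ± 0.06, adjusted p = 0.00217), which held without any of the 6 libraries. Against FK866 alone the Ex527-treated cells gave 0 members past the rule with the fold limit, against 1.27%, in edgeR and 0 in DESeq2, with 9 at an unadjusted p under 0.05, and 4 at an adjusted p under 0.05, against 12.2%: Ucp2 and, all lower, Plin2, Lpl and Cpt1a.

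Of the receptors and coactivators, Ppard ran from 1339 to 1786 normalized counts over the 12 libraries, Esrra from 1082 to 1383, Ppargc1b from 88.4 to 143 and Ppargc1a from 3.69 to 38.7, highest in FK866 plus NR replicate 1, and none passed either rule in any of the 5 comparisons. Among other mitochondrial genes, 5 of the 11 tested passed with FK866 at an adjusted p under 0.05, with 4 lower, against 24.8% of all genes called and 12.6% lower. Hsd17b10, a hydroxyacyl-CoA dehydrogenase like Hadh, fell (log2 -0.61 ± 0.10, edgeR adjusted p = 0.000313), and so did Echs1, the hydratase of the step before (log2 -0.41 ± 0.07, adjusted p = 0.000576). With NR added both were still below untreated cells (log2 -0.60 and -0.28, adjusted p = 0.00729 and 0.0155).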

How the data were processed

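RNA of 18 mouse hearts and 12 libraries of cells labelled HL-1 was sequenced. For hearts the authors trimmed single-end reads of 72 bases with Trimmomatic 0.39, aligned them with STAR 2.7.10a to mm10, removed duplicates with Picard 3.0.0 and dropped multi-mapping, ribosomal and mitochondrial reads. They deposited gene counts made with featureCounts 2.0.4, without reads over several genes, and a second table whose values are a rounded score, the counts divided by DESeq2 1.36.0 size factors. For the cells the authors deposited paired-end counts, FPKM values and gene lengths, and the labels name HISAT2 without a version and mm10. The program that counted these reads is not given in the sources used here. The heart tables' names are exchanged: the one named normalized holds whole counts, and every value of the other lay within 1 of count over size factor.

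Counts as deposited were tested with edgeR 4.0.16 (quasi-likelihood, TMM normalization, limma 3.58.1, R 4.3.3), in 1 fit of 6 heart groups (mean count above 5, adjusted p under 0.05) and 1 fit of 4 cell groups (filterByExpr, adjusted p under 0.01 and 1.5-fold, as in the study's methods, or adjusted p under 0.05), with Benjamini-Hochberg adjustment over all genes tested. Normalized counts are counts per TMM-scaled library at the mean library size, values after ± are standard errors, and 95% intervals are 1.96 standard errors. The scripts were tested on simulated counts. DESeq2 1.42.0, its size factors, no filter, a block for the replicate number, a fit of only the groups compared and leaving out each library were alternatives.

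The 42 members, the other pathway lists and the markers were chosen with earlier results of these data known. For up to 8 called members a comparison, those with the smallest adjusted p, and for all 7 receptors and coactivators, values were to be given whatever the outcome. The heart labels call the water control MQ, and intervals and p-values cover the spread between libraries only. The deposited score values were checked but not tested, and gene lengths entered no test. A result for 1 gene of the other pathway lists is not reported here.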

Additional observations from a re-analysis of the deposited data

Results flagged for a closer look

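In 5 cases the time-of-day difference of a member differed between groups of hearts by a test of that difference itself. Between old H2O and young hearts the difference in the log2 ratio of ZT10 to ZT22 was -0.90 for Cpt1a (edgeR quasi-likelihood, Benjamini-Hochberg adjusted p = 0.000414), -0.94 for Ucp3 (adjusted p = 0.0363) and 0.34 for Ppard (adjusted p = 0.0393). Between old NR and old H2O hearts it was 0.70 for Cpt1a (adjusted p = 0.0201) and 0.80 for Ppargc1b (adjusted p = 0.0258). Both sets of tests use the old H2O hearts, so that the opposite signs for Cpt1a are not independent of each other. Of the 5, the Cpt1a difference between old H2O and young hearts held without any 1 of the 12 hearts, and the other 4 were lost in 6 of 12 (Ucp3), 10 of 12 (Ppard), 4 of 12 (Cpt1a with NR) and 8 of 12 (Ppargc1b) fits that left out 1 heart.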

How the results depend on the processing

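The numbers of members called changed when 1 library was left out. They ran from 1 to 3 for time of day in young hearts, 0 to 6 in old H2O hearts, 1 to 3 in old NR hearts and 6 to 8 over the 3 kinds of heart. For old H2O against young hearts they ran from 0 to 3 at ZT10, 3 to 5 at ZT22, 2 to 5 over both times and 1 to 4 for the difference in time response. For old NR against old H2O hearts they ran from 0 to 4 at ZT22 and 0 to 5 for the difference in time response, and were 0 at ZT10 and 0 over both times in every such fit. In the cells labelled HL-1 they ran from 0 to 3 for FK866 against untreated, 0 to 1 for NR on top of FK866, and were 0 in every such fit of the other 3 comparisons. A fit of only the groups compared called 2 members for time in old H2O hearts, 5 for time in old NR hearts, 5 for age at ZT10, 3 for NR at ZT10 and 0 for NR at ZT22. DESeq2 called 1 member for the difference in time response between ages. With the log2 library total as a covariate, chosen after seeing the data, 5 members were called for time in young hearts, 6 in old NR hearts and 1 for NR at ZT10. Without a filter on low counts the HL-1 calls were 2 for FK866 against untreated, 1 for NR on top of FK866, 1 for FK866 and NR against untreated and 1 for Ex527 on top of both. At an adjusted p under 0.05 with no fold limit they were 12, 7, 12 and 3, and 4 for Ex527 against FK866 alone. The causes of these changes were not tested.

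No clear pairing of the libraries by the replicate numbers in the labels was seen, though the check cannot exclude a weak one. Deviations from the group means of same-numbered libraries had a median correlation of 0.0230 over 45 pairs in hearts and 0.0135 over 18 pairs in the cells, with 5 and 3 pairs above 0.1. For pairs of different numbers the medians were -0.0157 and -0.00153. Of the libraries, 8 of 18 and 4 of 12 correlated best with their own number. With the replicate number as a block, 5 members in place of 3 were called for time in old NR hearts, and every other count stayed within 1.5 times its value without the block.

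Of the log2 changes of single members with a call, no direction reversed under any alternative. The call was kept for 68 of 74 under DESeq2, 74 of 74 with DESeq2 size factors, 70 of 74 with no filter, 71 of 74 with the block, 48 of 57 with only the groups compared, 34 of 36 with the library total, and 417 of 588 fits with 1 library left out. With 3 libraries a group, an exact permutation test between groups cannot go below p = 0.1, so calls rest on the spread shared over all groups.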
